A study of Mus musculus with 10 samples.

Results

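The matrix metalloproteinases (MMPs), the ADAMTS proteases, the ADAMTS-like proteins (ADAMTSL) and the tissue inhibitors of metalloproteinases (TIMPs) were described here in mesenchymal cells of mouse skin and bone marrow. Their members were found by gene symbol, and 39 of the 14995 genes in the deposited count table matched: 14 MMP, 17 ADAMTS, 5 ADAMTSL and 3 TIMP genes. RNA was measured by bulk RNA sequencing of freshly sorted cells in 10 libraries. Skin Ebf2+ cells (3 libraries) came from enzyme-digested dorsal skin of FVB/N mice aged 8 to 12 weeks. Skin Ebf2- cells that carried CD140a and Sca1, called PαS (3 libraries), came from the same tissue, strain and age range. Bone marrow mesenchymal stem cells that carried Sca1 and CD51 (4 libraries) came from C57BL/6 mice aged 8 to 10 weeks. The sorts of all 3 populations removed leukocytes by CD45, red cell precursors by TER119 and endothelial cells by CD31. No genetic deletion or drug treatment is given in the labels, which also do not say how Ebf2 was detected in the sort. The series design gives 3 mice for the skin cells and 4 for the marrow cells. Strain, tissue and sort markers all change together between skin and bone marrow and cannot be told apart.

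MMPs and ADAMTS proteases are zinc enzymes that cleave the proteins of the extracellular matrix. Both are made as inactive precursors, so their activity depends on removal of the propeptide as well as on the level of their RNA. TIMPs bind the active site and block it, and ADAMTSL proteins resemble ADAMTS proteins but lack the protease domain. In skin and bone these families take part in collagen turnover, wound repair, cartilage resorption and the building of elastic microfibrils.

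Sequencing depth was 9.83 to 12.98 M counts in skin Ebf2+, 11.6 to 14.1 M in skin Ebf2- and 18.1 to 39.4 M in bone marrow, and a floor of 3 counts lay between 0.0761 and 0.305 counts-per-million units (CPM) before scaling. All levels below are CPM scaled by TMM, which corrects for differences in library composition. The 39 genes took 0.824% to 1.98% of a library's counts. Bone marrow 1 and 4 were nearly alike: their median chi-square over 11879 genes was 0.936, where counting noise alone gives 0.455 and the other bone marrow pairs gave 58.3 to 109. They were therefore averaged as 1 sample in every mean ± SD below (n = 3 in each group), and each edgeR or DESeq2 call against bone marrow is given also with their counts summed. The labels say that bone marrow 1 to 3 were taken from an earlier study. Ebf2, the gene that defines the skin sort, had 210, 317 and 157 CPM in skin Ebf2+, against 70.3, 73.5 and 47.1 CPM in skin Ebf2-. Bone marrow held 338, 186, 141 and 330 CPM of Ebf2, in the range of skin Ebf2+, so Ebf2 RNA does not set skin Ebf2+ apart from marrow. The 10 fibroblast and mesenchymal markers were all detected in every group. Leukocyte RNA stood out in skin Ebf2- 2, where the 6 lymphocyte markers in the table, of 10 listed, summed to 1193 CPM, against 0.150 to 94.5 CPM in the other 9 libraries. Without that library edgeR called 0 members between the skin populations and Mmp13 alone for skin Ebf2- over bone marrow. The 10 keratinocyte markers summed to 285, 5.32 and 1072 CPM in skin Ebf2+ cells and 917, 223 and 580 CPM in Ebf2- cells, against 9.04 to 13.6 CPM in bone marrow. Epcam, Krt14 and Krt17 were at 0 in bone marrow. Of these 10 markers edgeR called 5 higher in skin Ebf2+ and 4 higher in skin Ebf2- than in bone marrow, and their part in the differences between skin and marrow given below was not tested. In bulk samples, fewer cells of a type and less RNA per cell cannot be told apart.

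The largest contrast, that of Mmp13, lay in a row of MMP genes on chromosome 9, so the promoters of 4 of them are shown first. Mmp13 (7272514 to 7283333 on the plus strand, GRCm38, RefSeq) encodes the collagenase of cartilage and bone. Mmp3 (7445822 to 7455975) and Mmp10 (7502342 to 7510242) encode stromelysins, which cleave many matrix proteins, and Mmp27 (7571396 to 7581885) is a less studied relative. The sequences are the 130 bases before each RefSeq start (GRCm38.p6, plus strand, 5′ to 3′), with motif matches in capitals.
Mmp13, chr9:7272384-7272513: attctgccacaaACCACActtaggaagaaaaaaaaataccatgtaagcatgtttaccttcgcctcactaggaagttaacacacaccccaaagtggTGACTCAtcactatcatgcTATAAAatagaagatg
Mmp3, chr9:7445692-7445821: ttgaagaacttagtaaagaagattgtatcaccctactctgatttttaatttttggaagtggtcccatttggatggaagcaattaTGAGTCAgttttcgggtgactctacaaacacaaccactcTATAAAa
Mmp10, chr9:7502212-7502341: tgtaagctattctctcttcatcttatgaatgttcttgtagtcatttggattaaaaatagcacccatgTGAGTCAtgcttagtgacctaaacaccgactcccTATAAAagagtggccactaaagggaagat
Mmp27, chr9:7571266-7571395: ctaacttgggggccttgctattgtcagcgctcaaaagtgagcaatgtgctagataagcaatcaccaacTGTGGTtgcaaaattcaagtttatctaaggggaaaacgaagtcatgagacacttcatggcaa
The motifs searched, on both strands of the 250 bases before the start, were AP-1 (TGANTCA), the box called TATA (letters TATAAA), RUNX (TGTGGT) and EBF (TCCC followed, after any 2 bases, by GGGA). A promoter was found for 24 of the 39 genes. AP-1 matched in Mmp3, Mmp10 and Mmp13, against 6.75% of all 32851 mouse promoters in the table. TATA matched in 5 genes (Adamts1, Adamtsl2, Mmp3, Mmp10 and Mmp13; 12.4% of all promoters). RUNX matched in 4 genes (Mmp13, Mmp14, Mmp23 and Mmp27; 14% of all promoters), and EBF in Mmp14 (0.779% of all promoters). These matches describe the letters and are not evidence of binding.

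Mmp13 was abundant in bone marrow and nearly absent from skin. It had 0, 0 and 0 CPM in skin Ebf2+ and 0, 0 and 0.157 CPM (2 reads) in skin Ebf2-, against 81.7, 421, 198 and 73.3 CPM in bone marrow. Every bone marrow library stood above every skin library. Against the floor of 3 counts over the group, Mmp13 was at least 2541-fold lower in skin Ebf2+ than in bone marrow (edgeR quasi-likelihood test, adjusted p = 0.00246; 0.00312 with bone marrow 1 and 4 summed). Without bone marrow 2, which had the most Mmp13, the bound was 1507-fold. From its 2 reads it was 4747-fold lower in skin Ebf2- (95% counting interval 1314 to 39195; edgeR adjusted p = 0.00336; 0.00418 summed), and 2815-fold without bone marrow 2. With bone marrow 4 as the only marrow library the adjusted p was 0.411 for skin Ebf2+ and 0.407 for skin Ebf2- (edgeR), within a range over 18 alternatives that began at 1.79e-17 and 8.35e-17 (both DESeq2).

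Most markers of cartilage and bone were, like Mmp13, lower in skin. The 8 chondrocyte markers in the table, of 10 listed, summed to 33.6 to 115 CPM in skin Ebf2+ cells and 5.94 to 70.6 CPM in Ebf2- cells, against 3981 to 16536 CPM in bone marrow. The 10 osteoblast markers summed to 41.6 to 94.6 CPM in skin Ebf2+ cells and 31.0 to 98.9 CPM in Ebf2- cells, against 445 to 875 CPM in bone marrow. Ibsp and Sp7 were at 0 in skin Ebf2+, and Col9a1 was at 0 in skin Ebf2-. Bone marrow held 43.5 to 223 CPM of Ibsp but at most 4.88 CPM of Sp7, and Col9a1 was at 0 in bone marrow 4. Dmp1 went the other way in skin Ebf2+, with 21.3, 25.4 and 2.12 CPM, against at most 1.77 CPM in bone marrow. Over bone marrow, 2 of the 10 osteoblast markers had a positive log2 fold change in skin Ebf2+ and 1 in skin Ebf2-. None of the 8 chondrocyte markers had a positive log2 fold change in either. Within bone marrow the orders differed: Mmp13 was highest in bone marrow 2, and the chondrocyte sum in bone marrow 3. The part of these cells in the Mmp13 difference was not tested.

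The neighbours of Mmp13 had their higher means in skin. Mmp27 had 10.5, 7.32 and 16.6 CPM in skin Ebf2+ cells and 45.7, 29.4 and 100 CPM in Ebf2- cells, against 0.0489, 1.95, 0 and 0 CPM in bone marrow. The 3 groups did not overlap, and skin Ebf2- was the highest of them. None of its edgeR adjusted p-values passed 0.05 (0.0731 for skin Ebf2- over bone marrow, 0.164 for skin Ebf2+ over bone marrow and 1 for skin Ebf2+ over skin Ebf2-). DESeq2 called Mmp27 higher than bone marrow in skin Ebf2+ (adjusted p = 0.0125; 0.0282 with bone marrow 1 and 4 summed) and in skin Ebf2- (adjusted p = 1.96e-05; 3.87e-05 summed). Mmp3 had 87.9, 99.8 and 254 CPM in skin Ebf2+ cells and 52.5, 46.9 and 281 CPM in Ebf2- cells, against 34.8, 48.6, 34.4 and 32.8 CPM in bone marrow. Skin Ebf2+ lay above bone marrow in every library, while skin Ebf2- 2 fell within the marrow range. The log2 fold change of Mmp3 was 1.97 ± 0.64 (SE) for skin Ebf2+ over bone marrow (edgeR adjusted p = 0.171) and 1.75 ± 0.64 for skin Ebf2- over bone marrow (edgeR adjusted p = 0.262). Mmp10 was low except in the skin libraries numbered 3, with 0.116, 0.697 and 13.9 CPM in skin Ebf2+ cells and 0.512, 0.622 and 15.0 CPM in Ebf2- cells, against 0.0300 to 1.51 CPM in bone marrow.

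**Figure D1:**
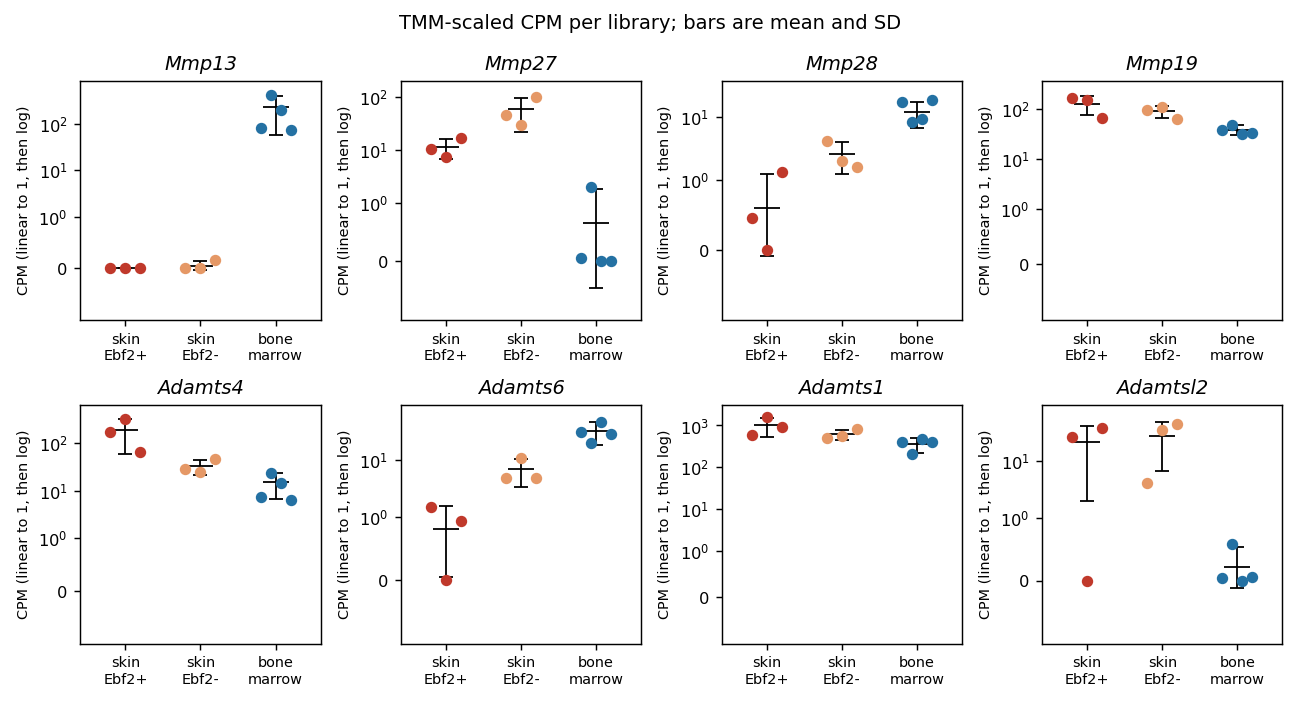
TMM-scaled CPM of 8 genes in each library (vertical axis linear up to 1 CPM and logarithmic above it), with black bars for the mean and SD (n = 3 each, bone marrow 1 and 4 averaged as 1). Mmp13, Mmp28 and Adamts6 were lower in every skin library than in any bone marrow library, Mmp27, Mmp19, Adamts4 and Adamts1 were higher, and Adamtsl2 was at 0 CPM in skin Ebf2+ 2.

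The inhibitors and the gelatinase Mmp2 made up most of the reads of these families. Timp2, Timp3 and Mmp2 together held 62.9% to 76.8% of the 39 genes' counts in each library. Per kilobase of exon, Timp2 ranked the highest in every group, followed by Mmp2 and Timp3. Timp2, which inhibits MMPs and also helps Mmp14 to activate the Mmp2 precursor, averaged 1179 CPM per kb in skin Ebf2+, 1311 in skin Ebf2- and 1005 in bone marrow. Mmp2, which cleaves denatured and basement membrane collagens, averaged 631 CPM per kb in skin Ebf2+, 587 in skin Ebf2- and 463 in bone marrow. Timp3, an inhibitor that binds to the matrix and also blocks ADAM and ADAMTS proteases, averaged 288 CPM per kb in skin Ebf2+, 240 in skin Ebf2- and 256 in bone marrow. None of the 3 genes passed the edgeR test in any comparison.

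Their libraries overlapped between all groups. Timp2 had 5584, 2131 and 6066 CPM in skin Ebf2+ cells and 4070, 3359 and 7888 CPM in Ebf2- cells, against 4504, 3859, 3396 and 4486 CPM in bone marrow. Mmp2 had 2051, 1429 and 2902 CPM in skin Ebf2+ cells and 1722, 1140 and 3075 CPM in Ebf2- cells, against 1456, 1935, 1295 and 1439 CPM in bone marrow. Timp3 had 2251, 2937 and 1859 CPM in skin Ebf2+ cells and 1461, 2838 and 1565 CPM in Ebf2- cells, against 2063, 1405, 2802 and 2022 CPM in bone marrow. The skin libraries spread further than the marrow ones for Timp2 and Mmp2. Timp1, a secreted inhibitor with a short transcript, was lower, averaging 49.2 CPM per kb in skin Ebf2+, 17.1 in skin Ebf2- and 42.1 in bone marrow. Without length correction it had 30.3, 78.9 and 21.8 CPM in skin Ebf2+ cells and 7.61, 11.3 and 26.6 CPM in Ebf2- cells, against 20.5, 29.3, 61.8 and 21.6 CPM in bone marrow. Its log2 fold change was 1.53 ± 0.81 (SE) for skin Ebf2+ over skin Ebf2- (edgeR adjusted p = 1). Timp1 and Timp3 lie within introns of the synapsin genes Syn1 and Syn3 on the opposite strand. Neither the labels nor the headers state whether reads were counted by strand, so such partners cannot be told apart.

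Summed per kilobase over each class, the MMPs had 0.394 to 0.717 of the TIMP level in each library. The MMP sum was 785, 562 and 1220 CPM per kb in skin Ebf2+ cells and 723, 497 and 1451 in Ebf2- cells, against 569, 858, 525 and 561 in bone marrow. The TIMP sum was 1744, 996 and 1810 CPM per kb in skin Ebf2+ cells and 1233, 1223 and 2247 in Ebf2- cells, against 1432, 1196, 1285 and 1424 in bone marrow. Both sums were highest in the library numbered 3 of each skin population. The ADAMTSL genes were the smallest class in every library, at 62.7 to 99.2 CPM per kb.

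**Figure D2:**
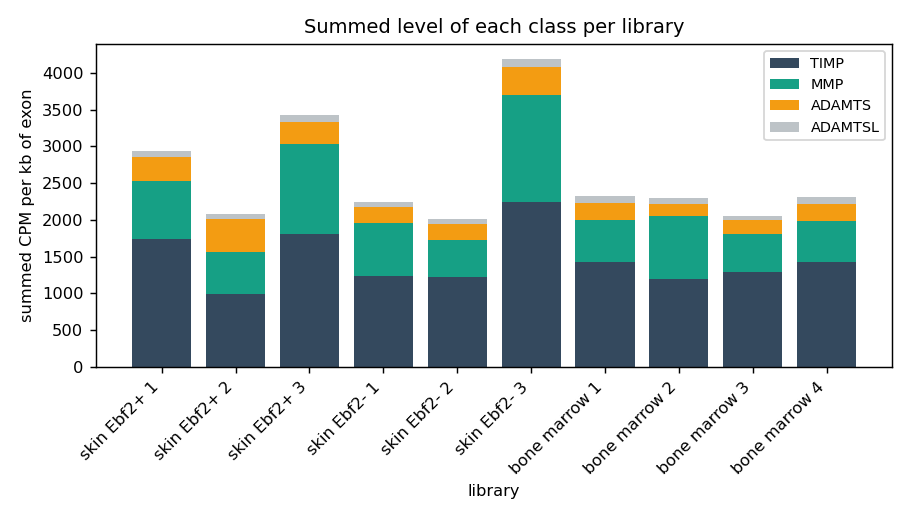
Stacked bars of the summed CPM per kb of exon of the TIMP, MMP, ADAMTS and ADAMTSL genes in each library. TIMP genes formed the largest block in all 10 libraries, and the totals ran from 2013 in skin Ebf2- 2 to 4186 in skin Ebf2- 3.

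Of the membrane-bound MMPs, Mmp14, which cleaves fibrillar collagen at the cell surface, was the most abundant per kilobase. It had 311, 136 and 634 CPM in skin Ebf2+ cells and 510, 393 and 1255 CPM in Ebf2- cells, against 363, 338, 162 and 371 CPM in bone marrow. Each skin Ebf2- library was above each marrow library, and skin Ebf2+ overlapped both other groups. The log2 fold change was 1.22 ± 0.58 (SE) for skin Ebf2- over bone marrow (edgeR adjusted p = 0.43) and -0.9985 ± 0.74 for skin Ebf2+ over skin Ebf2- (edgeR adjusted p = 1). The membrane-bound Mmp15, Mmp16 and Mmp17 stayed between 0 and 38.7 CPM in all libraries. Mmp15 did not overlap between the skin populations, with 4.07, 2.09 and 4.24 CPM in skin Ebf2+, against 0.146, 0.207 and 1.10 CPM in skin Ebf2-.

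The gelatinase Mmp9, known from neutrophils and osteoclasts, had 0 reads in skin Ebf2+ cells and 1.61, 0 and 0.236 CPM in Ebf2- cells, against 4.70, 15.1, 0 and 5.25 CPM in bone marrow. It was at least 73.1-fold lower in skin Ebf2+ than in bone marrow against the floor over the group, with overlap at 0, and the edgeR adjusted p was 0.19 (0.0107 by DESeq2; 0.0327 by DESeq2 with bone marrow 1 and 4 summed). That bound rests on bone marrow 2 and was 27.2-fold without it. Of 10 neutrophil markers 2 were in the table, summing to 15.0 to 41.8 CPM in skin Ebf2+ cells and 0.157 to 8.36 CPM in Ebf2- cells, against 0 to 31.0 CPM in bone marrow. Of 10 osteoclast and macrophage markers 5 were in the table, summing to 26.6 to 95.1 CPM in skin Ebf2+ cells and 21.1 to 65.6 CPM in Ebf2- cells, against 9.56 to 66.6 CPM in bone marrow. Their part in the Mmp9 values was not tested.

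Of the remaining MMPs, Mmp19 and Mmp23 were higher in skin and Mmp28 lower in most or all libraries, without passing the edgeR test. Mmp19, a secreted MMP of many tissues, had 165, 150 and 66.2 CPM in skin Ebf2+ cells and 93.4, 110 and 63.5 CPM in Ebf2- cells, against 38.3, 47.6, 30.9 and 33.5 CPM in bone marrow. Its log2 fold change for skin Ebf2+ over bone marrow was 1.76 ± 0.45 (SE; edgeR adjusted p = 0.0921; DESeq2 adjusted p = 0.00432; 0.0428 with bone marrow 1 and 4 summed). Mmp23, which lacks the usual cysteine switch of the propeptide, had 53.7, 8.63 and 147 CPM in skin Ebf2+ cells and 72.1, 39.3 and 172 CPM in Ebf2- cells, against 11.3, 22.2, 14.5 and 13.6 CPM in bone marrow. Skin Ebf2+ 2 was the lowest library of all 10 for Mmp23, as it was for the keratinocyte sum, and it had the highest mural cell marker sum (4076 CPM). In skin Ebf2-, Mmp23 was highest in number 3 and the keratinocyte sum in number 1. The part of these cells in the Mmp23 values was not tested. Mmp28, also called epilysin, had 0.465, 0 and 1.33 CPM in skin Ebf2+ cells and 4.17, 2.00 and 1.65 CPM in Ebf2- cells, against 17.5, 8.39, 9.43 and 18.8 CPM in bone marrow. The 3 groups of Mmp28 did not overlap, and the edgeR adjusted p was 0.164 for skin Ebf2+ over bone marrow and 0.51 for skin Ebf2- over bone marrow. Mmp11, an MMP first found in tumour stroma, ranged from 0.116 to 66.0 CPM and overlapped between all groups.

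Among the ADAMTS proteases that cleave aggrecan and versican, Adamts4 was higher in skin Ebf2+ than in bone marrow. It had 178, 327 and 66.7 CPM in skin Ebf2+ cells and 28.5, 25.1 and 46.4 CPM in Ebf2- cells, against 7.29, 23.3, 14.9 and 6.31 CPM in bone marrow. No library of one group reached into another. Adamts4 rose in skin Ebf2+ over bone marrow by 3.88 ± 0.65 on the log2 scale (SE; edgeR adjusted p = 0.0161; DESeq2 adjusted p = 4.24e-07). The edgeR adjusted p was 0.0559 with bone marrow 1 and 4 summed (2.62e-05 by DESeq2) and 0.056 with a block for the replicate number. Between skin and marrow that number links different strains, so the block is not a pairing there. Without bone marrow 1, 3 or 4 it was 0.0609, 0.0584 or 0.0553 (edgeR). Adamts4 passed in 11 of 18 alternatives. Of the passing fits, only DESeq2 with bone marrow 1 and 4 summed did not count these nearly alike libraries as separate samples. The edgeR fits that held only 1 of them, or their sum, did not pass. Leaving out bone marrow 4 and keeping bone marrow 1 to 3 only are the same fit, counted separately among the 18. For skin Ebf2- over bone marrow the log2 fold change was 1.36 ± 0.61 (edgeR adjusted p = 0.393).

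Between the skin populations Adamts4 differed by 2.52 ± 0.71 on the log2 scale (SE), with an unadjusted p of 0.00583 and an edgeR adjusted p of 0.94. In the authors' deposited table its log2 fold change was 2.56 with an adjusted p of 0.0380. DESeq2 run here on the 6 skin libraries gave an adjusted p of 0.0796. Markers of mural cells, which wrap small vessels, moved with it: all 10 were detected, and they summed to 1155, 4076 and 792 CPM in skin Ebf2+ cells and 250, 115 and 299 CPM in Ebf2- cells, against 365, 258, 411 and 370 CPM in bone marrow. Of the 10 markers, 9 had a positive log2 fold change for skin Ebf2+ over skin Ebf2-, and Kcnj8 did not. The 3 skin Ebf2+ libraries had the same order for Adamts4 and for the mural sum, and so had the 3 skin Ebf2- libraries. In skin Ebf2-, however, that order of the sum rested on Kcnj8, with 57.1, 17.4 and 145 CPM. Acta2 had another order there, with 49.3, 6.15 and 47.0 CPM. Bone marrow had another order, with Adamts4 highest in bone marrow 2 and the mural sum lowest there. The part of mural cells in the Adamts4 values was not tested.

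Adamts1 was the most abundant ADAMTS gene per kilobase in all 3 groups. It had 587, 1568 and 904 CPM in skin Ebf2+ cells and 502, 556 and 805 CPM in Ebf2- cells, against 406, 203, 486 and 410 CPM in bone marrow. Every skin library was above every marrow library, and skin Ebf2+ over bone marrow gave 1.44 ± 0.47 on the log2 scale (SE; edgeR adjusted p = 0.171; DESeq2 adjusted p = 0.0345, and 0.126 with bone marrow 1 and 4 summed). Dissociation stress genes, such as Fos and Jun, summed to 19225 to 30135 CPM in skin Ebf2+ cells and 17087 to 20822 CPM in Ebf2- cells, against 11447 to 23879 CPM in bone marrow. Adamts1 and the stress sum had the same order over the libraries of skin Ebf2+ and over those of bone marrow. In skin Ebf2- they did not, with Adamts1 highest in number 3 and the stress sum highest in number 2. Single stress genes differed from the sum. In skin Ebf2+, Fos and Jun were highest in number 3, at 6524 and 4140 CPM, and Egr1 in number 2, at 12785 CPM. The part of stress in the Adamts1 values was not tested.

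Adamts5, the main aggrecan-cleaving enzyme of mouse cartilage, had 681, 444 and 126 CPM in skin Ebf2+ cells and 469, 388 and 96.3 CPM in Ebf2- cells, against 790, 704, 435 and 746 CPM in bone marrow. Both skin libraries numbered 3 were the lowest. Its log2 fold change was -0.68 ± 0.63 (SE) for skin Ebf2+ over bone marrow (edgeR adjusted p = 0.68) and -1.07 ± 0.64 for skin Ebf2- over bone marrow (edgeR adjusted p = 0.555). Adamts15, a related proteoglycan-cleaving enzyme, had 129, 64.7 and 123 CPM in skin Ebf2+, all above the 30, 56.2, 19.6 and 28.9 CPM of bone marrow (edgeR adjusted p = 0.164; DESeq2 adjusted p = 0.038, and 0.162 with bone marrow 1 and 4 summed). Adamts8 and Adamts9, also proteoglycan-cleaving enzymes, ranged from 0 to 10.9 and from 0.691 to 41.4 CPM.

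Of the enzymes that remove the amino-terminal propeptide of procollagens, Adamts2 was the most abundant per kilobase. It had 313, 97.2 and 577 CPM in skin Ebf2+ cells and 269, 374 and 1595 CPM in Ebf2- cells, against 218, 214, 246 and 224 CPM in bone marrow. All skin Ebf2- libraries were above bone marrow, although skin Ebf2- 3 alone carried most of the distance, and the edgeR adjusted p was 0.291. Adamts14 had 10.2, 5.75 and 16.5 CPM in skin Ebf2+, against 30.9, 40.5 and 27.3 CPM in skin Ebf2-, and differed by -1.61 ± 0.75 on the log2 scale (SE; edgeR adjusted p = 1). Bone marrow held 19.3, 7.46, 0.841 and 22.7 CPM of Adamts14. Adamts3 was at 0.174 to 37.8 CPM in skin Ebf2+ cells and 0.967 to 4.83 CPM in Ebf2- cells, against 8.02 to 32.7 CPM in bone marrow, and 1 skin Ebf2+ library held nearly all of the Ebf2+ reads.

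Adamts6, whose protein acts on fibrillin microfibrils, lay lower in every skin library than in any marrow library. It had 1.51, 0 and 0.941 CPM in skin Ebf2+ cells and 4.98, 11.1 and 4.87 CPM in Ebf2- cells, against 31.7, 19.95, 47.4 and 28.6 CPM in bone marrow. The 3 groups did not overlap. For skin Ebf2+ over bone marrow the log2 fold change was -5.29 ± 1.22 (SE; edgeR adjusted p = 0.0659; DESeq2 adjusted p = 2.72e-07, and 2.09e-05 with bone marrow 1 and 4 summed), and for skin Ebf2- over bone marrow it was -2.19 ± 1.03 (edgeR adjusted p = 0.42). Adamts10, its closest relative, was present in all libraries at 29.6 to 205 CPM. Adamts12, which cleaves cartilage oligomeric matrix protein, was low in both skin libraries numbered 3, with 402, 195 and 35.5 CPM in skin Ebf2+ cells and 178, 148 and 24.2 CPM in Ebf2- cells, against 372, 92.2, 64.8 and 360 CPM in bone marrow. Adamts18 was detected in all 3 skin Ebf2- libraries at 23.3, 2.35 and 15.9 CPM, against 0, 0.390, 0.331 and 0 CPM in bone marrow. DESeq2 called Adamts18 higher there (adjusted p = 0.0191; 0.039 with bone marrow 1 and 4 summed), and edgeR did not (adjusted p = 0.236). Adamts7, Adamts16, Adamts17 and Adamts19 ranged from 0 to 78.3 CPM and passed in no comparison.

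Of the ADAMTS-like proteins, which bind to microfibrils and other matrix, Adamtsl4 was the most even. It had 190, 198 and 211 CPM in skin Ebf2+ cells and 98.8, 101 and 158 CPM in Ebf2- cells, against 125, 147, 162 and 126 CPM in bone marrow. Skin Ebf2+ lay above both other groups, by 0.74 ± 0.52 on the log2 scale over skin Ebf2- (SE; edgeR adjusted p = 1) and by 0.51 ± 0.38 over bone marrow (edgeR adjusted p = 0.589). Adamtsl1 had 193, 231 and 122 CPM in skin Ebf2+ cells and 182, 184 and 167 CPM in Ebf2- cells, against 98.8, 46.5, 41.6 and 104 CPM in bone marrow. All skin libraries of Adamtsl1 were above the marrow libraries (edgeR adjusted p = 0.192 for skin Ebf2+ and 0.248 for skin Ebf2-). Adamtsl3 had its higher mean in marrow, with 118, 96.7 and 58.8 CPM in skin Ebf2+ cells and 100, 77.8 and 47.4 CPM in Ebf2- cells, against 284, 178, 115 and 275 CPM in bone marrow (edgeR adjusted p = 0.26 for skin Ebf2+ and 0.21 for skin Ebf2-). Adamtsl5 had 26.7, 1.83 and 128 CPM in skin Ebf2+ cells and 60.8, 46.8 and 169 CPM in Ebf2- cells, against 87.2, 83.7, 43.4 and 90.2 CPM in bone marrow. Its groups overlapped, and skin Ebf2+ 2 was the lowest library, as it was for the keratinocyte sum. Bone marrow, however, held 43.4 to 90.2 CPM of Adamtsl5 with keratinocyte sums of only 9.04 to 13.6 CPM. The part of keratinocytes in the Adamtsl5 values was not tested.

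Adamtsl2, which binds fibrillin and is mutated in human geleophysic dysplasia, was nearly restricted to skin but not to all of its libraries. It had 26.2, 0 and 37.7 CPM in skin Ebf2+ cells and 4.10, 34.2 and 44.2 CPM in Ebf2- cells, against 0.0489, 0.585, 0 and 0.05004 CPM in bone marrow. Skin Ebf2+ 2 had no read, so that group overlapped bone marrow, and skin Ebf2- did not. The edgeR adjusted p was 0.106 in each comparison with bone marrow. DESeq2 gave adjusted p-values of 0.00032 for skin Ebf2+ and 0.000142 for skin Ebf2- (0.00159 and 0.000753 with bone marrow 1 and 4 summed). Skin Ebf2+ 2 had the lowest keratinocyte sum of all libraries and the highest mural sum (4076 CPM). In skin Ebf2-, number 1 had the least Adamtsl2 and the highest keratinocyte sum (917 CPM). The part of keratinocytes or mural cells in the Adamtsl2 values was not tested. Skin Ebf2+ 2 also held no read of Mmp16, Mmp28, Adamts6, Adamts8, Adamts16 and Adamts18, and 9 of the 39 genes were at 0 there, against 1 to 6 in each of the other 9 libraries.

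**Figure D3:**
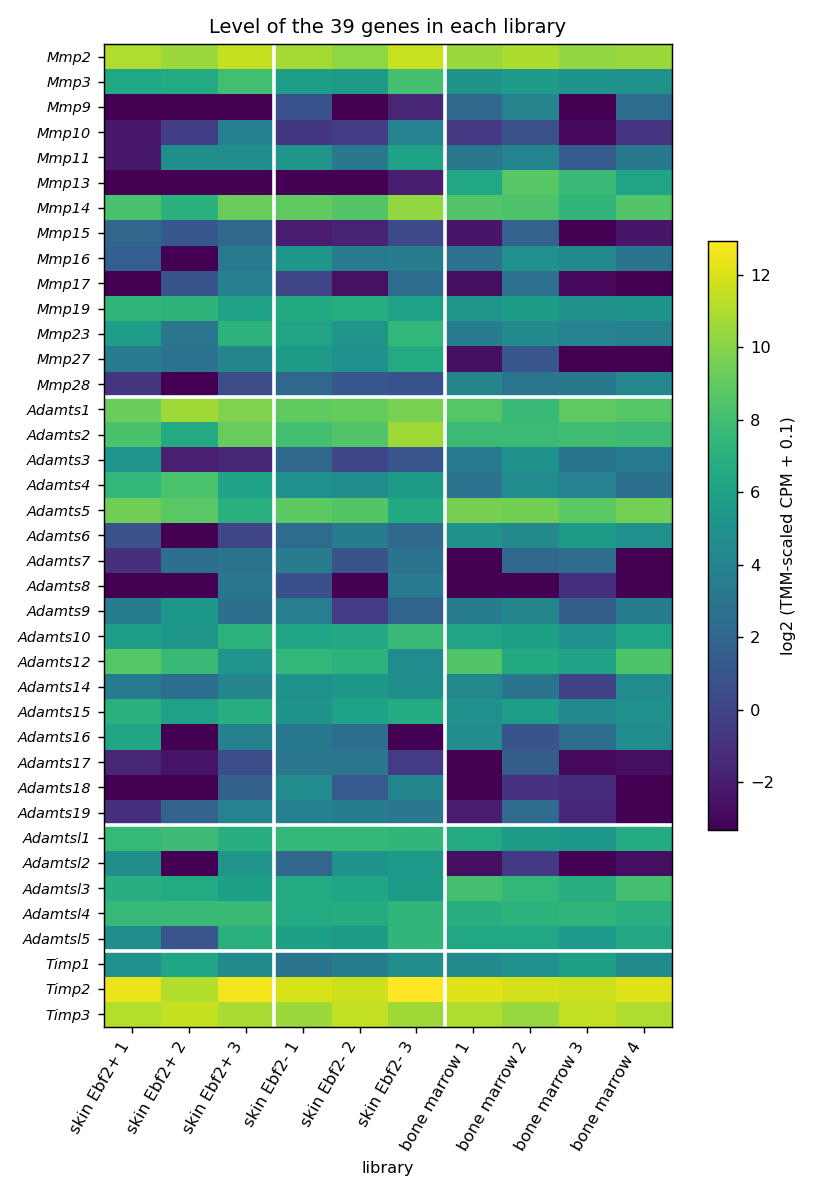
Heat map of log2 (TMM-scaled CPM + 0.1) of the 39 genes (rows, by class) in the 10 libraries (columns), with white lines between classes and groups. Timp2, Timp3 and Mmp2 are bright in all libraries, and Mmp13 is dark in the skin libraries and bright in the bone marrow ones.

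Across the families, skin Ebf2+ and skin Ebf2- were not separated by the test. Of the 39 genes 36 passed the filter on low counts, and edgeR called 0 of them, as it called 0% of the 13477 genes tested. At an unadjusted p below 0.05 there were 343 genes, 2 of them members (Adamts4 and Mmp27). With a block for the replicate number, which pairs the skin libraries of equal number, edgeR called 8 genes (0.0594%) and no member. The block gave 565 genes at an unadjusted p below 0.05, with 6 members (Adamts18, Adamts2, Adamts4, Adamtsl4, Mmp14 and Mmp27), of which the lowest adjusted p was 0.574 (edgeR, Mmp27). DESeq2 called 130 of 14268 genes (0.911%) and none of the members. Among the 135 genes that passed in the authors' deposited table, Adamts4 was the 1 member. The median log2 fold change was -0.06 over the members and 0.01 over all genes. Adamts4, Adamtsl4 and Mmp15 were higher in skin Ebf2+ with no overlap, 3 of 36 members (8.33%) beside 3% of all genes. Adamts14, Adamts6, Mmp27 and Mmp28 were lower with no overlap, 4 of 36 (11.1%) beside 3.72% of all genes. In all 3 pairs of equal number, 9 of 36 members (25%) were higher in skin Ebf2+, beside 13.1% of all genes, and 10 (27.8%) were lower, beside 15.9%. The 9 were Adamts1, Adamts12, Adamts4, Adamts5, Adamtsl3, Adamtsl4, Mmp15, Mmp19 and Timp3, and the 10 were Adamts10, Adamts14, Adamts18, Adamts6, Adamtsl5, Mmp14, Mmp16, Mmp23, Mmp27 and Mmp28.

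Against bone marrow, edgeR called 2 of the 39 members in skin Ebf2+, Adamts4 higher and Mmp13 lower, with 134 of 14520 genes called in all (0.923%). With bone marrow 1 and 4 summed it called Mmp13 alone, and 0.354% of 14397 genes, and with the replicate block Mmp13 alone, and 0.461% of 14520 genes. DESeq2 called 10 members, with 8.02% of all genes called: Adamts1, Adamts15, Adamts4, Adamtsl2, Mmp19 and Mmp27 higher, and Adamts6, Mmp13, Mmp28 and Mmp9 lower. With bone marrow 1 and 4 summed DESeq2 called 8 of these, without Adamts1 and Adamts15, and 4.98% of all genes. The median log2 fold change was 0.54 over the members, also with Mmp13 and Mmp9 at their bounds, and 0.09 over all genes. Adamts1, Adamts15, Adamts4, Adamtsl1, Adamtsl4, Mmp19, Mmp27 and Mmp3 were higher with no overlap, 8 of 39 (20.5%) beside 6.07% of all genes. Adamts6, Mmp13 and Mmp28 were lower with no overlap, 3 of 39 (7.69%) beside 7.66% of all genes, which is near the background.

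In skin Ebf2- against the same bone marrow libraries, edgeR called Mmp13 lower and no other member, with 106 of 14520 genes called in all (0.73%). With bone marrow 1 and 4 summed Mmp13 was again the 1 member called, with 0.326% of all genes, and so it was with the replicate block (0.475%). DESeq2 called 5 members, Adamts18, Adamtsl2, Mmp23 and Mmp27 higher and Mmp13 lower, with 5.61% of all genes called. With bone marrow 1 and 4 summed it called 4 of these, without Mmp23 (DESeq2 adjusted p = 0.0831), and 3.94% of all genes. The median log2 fold change was 0.72 over the members and 0.06 over all genes. With no overlap, 13 of 39 members were higher (33.3%; 9.46% of all genes) and 5 were lower (12.8%; 9.27% of all genes). The 13 were Adamts1, Adamts10, Adamts14, Adamts18, Adamts19, Adamts2, Adamts4, Adamtsl1, Adamtsl2, Mmp14, Mmp19, Mmp23 and Mmp27, and the 5 were Adamts3, Adamts6, Adamtsl3, Mmp13 and Mmp28. Both comparisons share the marrow libraries, so their likeness is not independent.

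**Figure D4:**
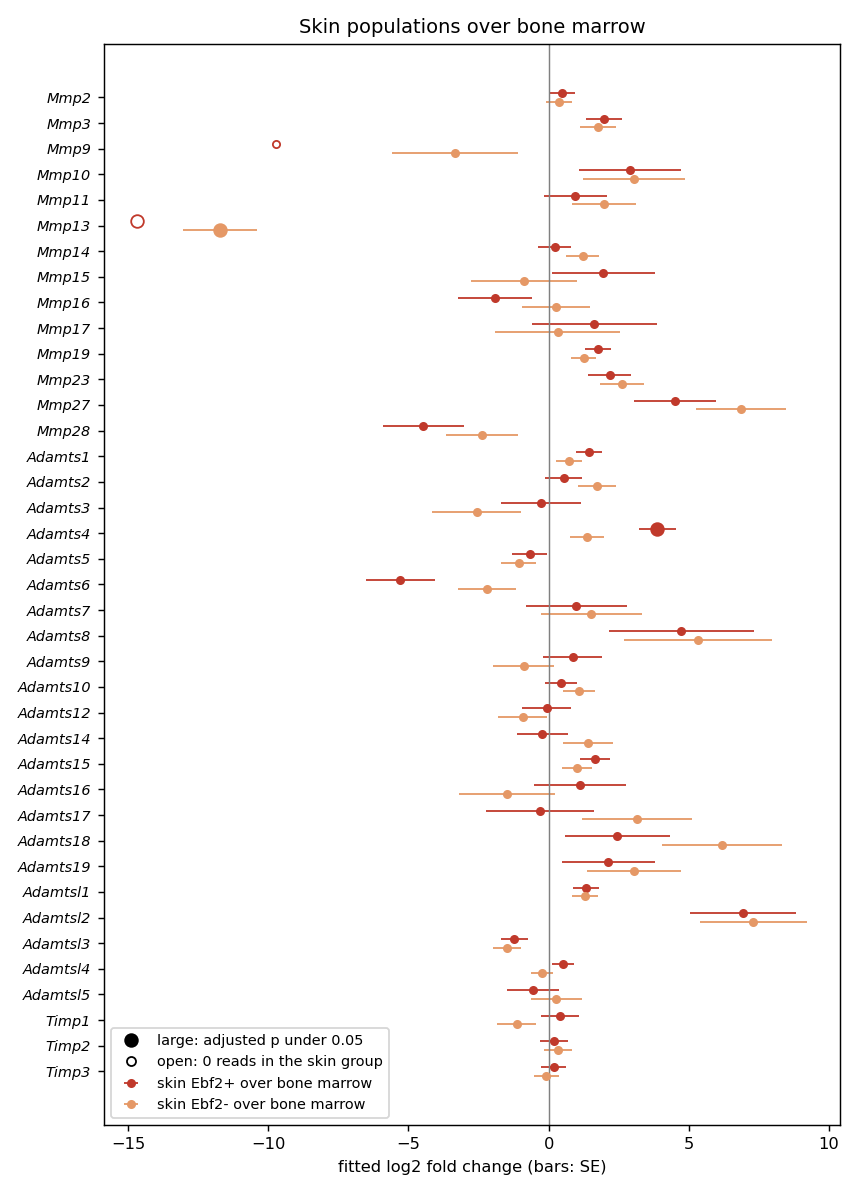
Fitted log2 fold change of each of the 39 genes for skin Ebf2+ over bone marrow (red) and skin Ebf2- over bone marrow (orange), with bars for the SE. Large points passed an adjusted p of 0.05 (Mmp13 in both, Adamts4 in skin Ebf2+), and open points had 0 reads in the skin group, so that their position is set by the fit and no bar is drawn.

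The skin libraries numbered 3 stood apart from numbers 1 and 2 in both populations for many of the genes. In 16 of the 39 members (41%) number 3 was above both others in both populations, beside 25.5% of 13706 genes with more than 6 CPM summed over skin. In 5 members (12.8%) it was below both others in both, beside 20.3% of those genes. Mmp10 was 34.1 times the mean of numbers 1 and 2 in skin Ebf2+ and 26.5 times in skin Ebf2-. Mmp17 was 15.8 times that mean in skin Ebf2+ and 10.3 times in skin Ebf2-. Adamts12 was 0.119 times it in skin Ebf2+ and 0.149 times in skin Ebf2-, and Adamts5 0.223 and 0.225 times. The collagen gene Col3a1 had 26224 CPM in skin Ebf2+ 3 and, in skin Ebf2- 3, 55409 CPM, against 6737 to 10574 CPM in the other skin libraries. Without both libraries numbered 3, edgeR called 0 of 13188 genes between the skin populations, so that its 0 members say nothing particular about them.

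**Figure D5:**
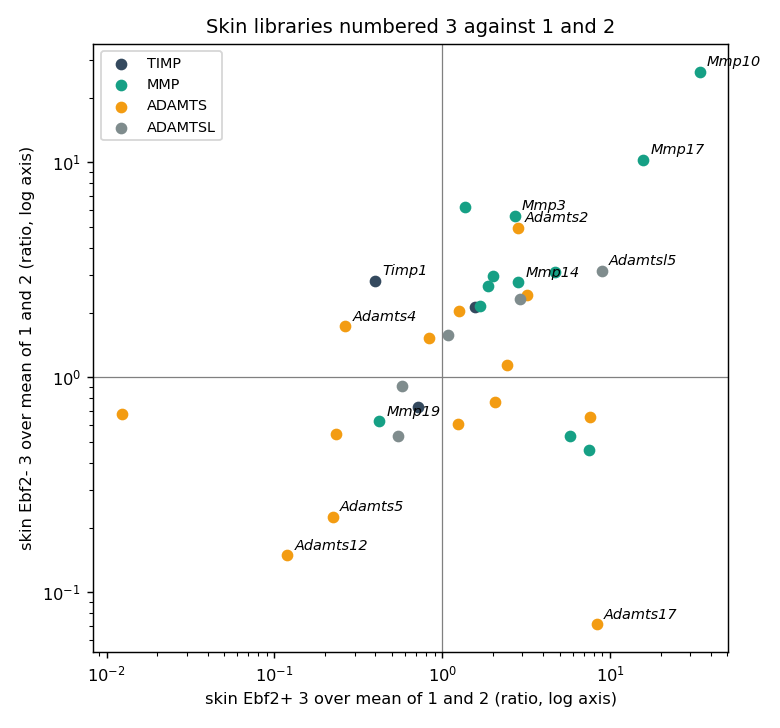
Ratio of the skin library numbered 3 to the mean of numbers 1 and 2 in skin Ebf2+ (horizontal, log axis) and skin Ebf2- (vertical, log axis) for the 34 genes with a ratio above 0 in both. Mmp10 and Mmp17 lie at the top right and Adamts12 and Adamts5 at the bottom left, while Adamts17 moved in opposite directions.

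Other genes of matrix proteolysis were counted from 4 lists. Of 10 ADAM family genes, none passed in any comparison, with 9 tested between the skin populations and 10 against bone marrow. Adam19, a membrane-bound sheddase with the highest mean CPM of them in each group, a scale not corrected for gene length, had 31.6 to 345 CPM in skin and 112 to 487 CPM in bone marrow. Of 12 genes listed as other matrix-degrading proteases, 11 were tested in each comparison and none passed. Mrc2, on that list and tested, is a receptor and not a protease. On the same scale Ctsb, a lysosomal cathepsin, had the highest mean in skin Ebf2+ and bone marrow, at 405 to 1550 CPM in skin and 808 to 926 CPM in bone marrow. Htra3, a secreted serine protease, had the highest mean in skin Ebf2-, at 319 to 1914 CPM in skin and 391.7 to 932 CPM in bone marrow.

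Of 18 activators, inhibitors and receptors, 17 were in the table and tested against bone marrow, and none passed between the skin populations (15 tested). Serpine2, an inhibitor of thrombin and plasminogen activators, was lower in skin in both comparisons. It had 49.4, 76.3 and 86.2 CPM in skin Ebf2+ cells and 15.1, 13.7 and 62.1 CPM in Ebf2- cells, against 622, 491, 513 and 632 CPM in bone marrow. Its log2 fold change was -2.999 ± 0.60 for skin Ebf2+ (SE; edgeR adjusted p = 0.0399; 0.0989 with bone marrow 1 and 4 summed) and -4.22 ± 0.64 for skin Ebf2- (edgeR adjusted p = 0.00866; 0.0211 summed). Pcsk5, a proprotein convertase of the family that activates precursors, had 86.1, 99.2 and 110 CPM in skin Ebf2+ cells and 108, 116 and 150 CPM in Ebf2- cells, against 32.8, 33.2, 23.2 and 32.7 CPM in bone marrow. It passed in skin Ebf2- (2.03 ± 0.39 on the log2 scale, SE; edgeR adjusted p = 0.0379; 0.13 summed) and not in skin Ebf2+ (edgeR adjusted p = 0.0673).

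Of 20 substrates, 18 were in the table and tested against bone marrow, and 1 passed, lower in both skin populations. Comp, cartilage oligomeric matrix protein, which is also on the chondrocyte list above, had 0.465, 12.98 and 0.235 CPM in skin Ebf2+ cells and 0.0732, 0.483 and 0.628 CPM in Ebf2- cells, against 1127, 2076, 5402 and 1161 CPM in bone marrow. Its log2 fold change was -9.05 ± 1.57 for skin Ebf2+ (SE; edgeR adjusted p = 0.0196; 0.0356 summed) and -12.57 ± 1.81 for skin Ebf2- (edgeR adjusted p = 0.00606; 0.0131 summed). The median over the 18 substrates was -0.50 for skin Ebf2+ and -0.51 for skin Ebf2-. None of the 14 substrates tested passed between the skin populations. Comp did not pass the filter on low counts there.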

How the data were processed

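STAR alignment to GRCm38 was followed by featureCounts per gene, per the file headers, and the authors deposited raw counts for each library with no replicates pooled. The authors' deposited log2 fold changes and adjusted p-values come from DESeq2, per the file headers, and are quoted by name only. Per the submitters' processing notes, STAR was version 2.6.1d. The lowest gene total was 21 counts, so low genes had been removed. Columns were matched to samples by name, taking the S number as the replicate number, a link the labels do not state.

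The main test was that of edgeR 4.0.16 under R 4.3.3 (TMM, filterByExpr, quasi-likelihood, two-sided, Benjamini-Hochberg over all genes tested, adjusted p below 0.05), on the 6 skin libraries or on all 10 libraries in 3 groups. The script was tested on simulated data. Levels are TMM-scaled CPM, and per kb uses GENCODE M21 exon lengths. Promoters are from RefSeq. Alternatives were DESeq2 1.42.0, limma-voom (limma 3.58.1), other scaling and filters, left-out libraries and a replicate block. DESeq2 with bone marrow 1 and 4 summed was chosen after seeing the data. Skin libraries of equal number deviated together (r = 0.185, 0.23 and 0.614, each above 0.1) as did those numbered 1 and 2 across the populations (r = 0.151 both ways). For numbers 1 and 2 equal and unequal numbers were thus nearly alike, so these values do not show that equal numbers are pairs. Equal numbers were treated as pairs only in the block and in the counts over pairs of equal number. The main skin test has no block, and the blocked values stand beside it where they change a count or call. The labels do not say that each library is a separate animal, so p-values measure the spread between libraries. Counting intervals and floors cover counting error only, since reads carry no molecular identifiers.

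Members and lists were chosen with earlier results of these data known. Values were to be given in full for members called in any comparison and for the 3 highest of each class in any group. Mmp9, Mmp10, Mmp15, Mmp19, Mmp23, Mmp27, Mmp28, Adamts6, Adamts12, Adamts14, Adamts15, Adamts18 and Adamtsl2, and Col3a1 and the members of the numbered-3 comparison, were chosen after their values were seen.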

Additional observations from a re-analysis of the deposited data

Results flagged for a closer look

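In 11 of the 39 genes, 1 of the 4 bone marrow libraries stood so far from the other 3 that its gap exceeded Dixon's 95% critical value. Chance flags about 1 in 20 groups, and bone marrow 1 and 4 are nearly alike, which shrinks the range of the others. Bone marrow 2 was the high library in 8 genes. It had 32.7 CPM of Adamts3 (8.02 to 10.7 CPM in the others) and 48.6 CPM of Mmp3 (32.8 to 34.8 CPM). Lower levels of the same library were 6.58 CPM of Mmp17, 5.12 CPM of Adamts19, 3.37 CPM of Mmp15, 2.68 CPM of Adamts17, 1.95 CPM of Mmp27 and 0.585 CPM of Adamtsl2, all with the other 3 libraries between 0 and 0.270 CPM. Bone marrow 3 was the low library for Mmp14 (162 CPM, others 338 to 371 CPM) and Adamtsl5 (43.4 CPM, others 83.7 to 90.2 CPM), and it alone held Adamts8 (0.361 CPM, others at 0 CPM).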

How the results depend on the processing

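Between the skin populations 0 members were called under every alternative run, including the replicate block and leaving out each library. The replicate block, which pairs libraries of equal number, called 8 of 13477 genes there (0 without it) and 0 members. It lowered the count over all genes to 67 for skin Ebf2+ and 69 for skin Ebf2- over bone marrow, against 134 and 106 without it. Against bone marrow, however, the block joins libraries of different strains that share only a number, and bone marrow 4 stands alone in its block. The blocked values against bone marrow are therefore not a paired test. For skin Ebf2+ over bone marrow, 2 members became 10 with DESeq2, 8 with DESeq2 and bone marrow 1 and 4 summed, 4 with limma-voom, 1 with the replicate block, 1 with bone marrow 1 and 4 summed, 1 with bone marrow 1 to 3 only and 0 with bone marrow 4 only, and leaving out 1 library gave 1 to 4. Adamts6 and Adamtsl2 joined without skin Ebf2+ 2, Mmp19 without skin Ebf2+ 3 and Mmp27 without bone marrow 2. Adamts4 dropped out without bone marrow 1, 3 or 4. For skin Ebf2- over bone marrow, 1 member became 5 with DESeq2, 4 with DESeq2 and bone marrow 1 and 4 summed, 2 with limma-voom, 3 with the 2 groups alone (Adamtsl2 and Mmp23 beside Mmp13) and 0 with bone marrow 4 only, and leaving out 1 library gave 1 to 2 (Mmp27 joined without bone marrow 2). The replicate block left that count at 1. Leaving out any 1 bone marrow library cut the count over all genes for skin Ebf2+ to between 44 and 75, from 134. Fewer libraries enter those fits, and bone marrow 4 alone takes its spread from the skin groups. Why the tools differ was not tested. No fold change of a member whose test is printed singly above turned its sign under an alternative fit. Other members did, under at least 1 fit: 13 of 36 between the skin populations, 17 of 39 for skin Ebf2+ over bone marrow and 8 of 39 for skin Ebf2- over bone marrow, none of them called in any fit of that comparison. On plain CPM without TMM, the sign of the mean difference turned for Adamtsl1 and Mmp10 between the skin populations and for Timp3 in skin Ebf2- over bone marrow. Depth limits the lowest genes: before scaling, 3 counts are 0.0761 CPM in the deepest library (bone marrow 3) and 0.305 CPM in the shallowest (skin Ebf2+ 1). Values near or under the floor of their own library rest on few reads.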
